A study of Mus musculus with 30 samples.

Results

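Glutamate receptors and the proteins that ride with them were measured as 34 genes in the hippocampus of TIMP2 KO and WT mice. The genes were taken by name from a table of 49315 genes, by a rule that uses no measured value but was set with earlier results of these data known, and all 34 were found and passed the filter on low counts. They comprise AMPA receptor subunits (Gria1 to Gria4), NMDA receptor subunits (Grin1, Grin2a, Grin2b, Grin2d, Grin3a), kainate receptor subunits (Grik1, Grik2, Grik3, Grik5), the delta receptor gene Grid1 and 6 metabotropic receptor genes (Grm2, Grm3, Grm4, Grm5, Grm7, Grm8). The auxiliary genes encode transmembrane AMPA receptor regulatory proteins, or TARPs (Cacng2, Cacng3, Cacng7, Cacng8), cornichon homologues (Cnih2, Cnih3), CKAMP family proteins (Shisa6, Shisa7, Shisa9), GSG1L (Gsg1l), the NETO proteins of kainate receptors (Neto1, Neto2) and the noelins (Olfm1, Olfm2).

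Hippocampal RNA came from 13 KO mice (6 males, 7 females) and 17 WT mice (10 males, 7 females) on the C57BL/6J strain. The KO mice lack TIMP2, an inhibitor of matrix metalloproteinases, in every cell, from the germ line on, and littermates served as controls. The study used mice of a younger and an older adult age band, and the sources used here do not say to which the sequenced mice belong. Each library is 1 mouse, sequenced from poly(A)-selected RNA.

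Ionotropic glutamate receptors are tetrameric channels. AMPA receptors carry fast excitatory transmission, NMDA receptors admit calcium and start many forms of synaptic plasticity, and kainate receptors shape transmission on both sides of the synapse. Metabotropic receptors signal through G proteins. TARPs, cornichons, CKAMPs, GSG1L and NETO proteins assemble with the channels and set their gating, delivery to the surface and place at the synapse, and noelins bind AMPA receptors from outside the cell.

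The check of the labels came first. Timp2 lay between 130 and 171 CPM (read counts scaled by the TMM library size) in the KO mice, with a median of 161, and between 256 and 380 CPM in the WT mice, with a median of 333. The KO and WT ranges did not overlap, and reads of the gene remained in every KO library (log2 fold change -0.999 ± 0.053 SE, edgeR adjusted p = 7.62e-16). Total counts ran from 18345517 to 41081083 in KO and from 19445246 to 32098386 in WT. All 10 hippocampal excitatory neuron markers were measured, at a summed level of 8364 to 10701 CPM in KO and 8382 to 9787 CPM in WT. Other marker lists moved with genotype at an unadjusted p under 0.05 in edgeR, beside 5.03% of all genes called. Of the immediate early genes 10 of 12 rose in KO (summed level 310.1 to 864 CPM against 270.3 to 766 CPM in WT), 0 at an adjusted p. Of the dentate granule cell markers 5 of 12 fell (784 to 976 against 842 to 1218 CPM), 0 at an adjusted p. Of the measured choroid plexus markers 3 of 4 rose (127 to 1109 against 122 to 173 CPM), 1 of them at an adjusted p. In each of the other 11 marker lists 0 or 1 gene passed an unadjusted p. Their part in the results below was not tested. TIMP2 KO male replicate 5 is the mouse numbered 18. It held the lowest Cnih3 and Shisa9 values and the highest Cnih2 value of the 30 mice. Values without this mouse are given beside some of the results. Without it 2 members were called in KO against WT, Cnih3 and Gria1, neither at an adjusted p. The share of all genes called in that fit is not given here, so the count is not a result about the members.

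Levels between genes are compared as FPKM, here CPM divided by the length of the gene's merged exons in kilobases. Olfm1, a secreted noelin, stood highest at 387 ± 23.7 FPKM (SD, n = 30), followed by Cnih2 at 331 ± 21.9 and Gria1, the GluA1 subunit of AMPA receptors, at 191 ± 8.56. The ranges of Olfm1 and Cnih2 overlapped, and Gria1 stood clear of Cnih2 above it and of every gene below it. A second tier held Cacng8 (78.3 ± 5.13 FPKM), the TARP γ-8 that is the main TARP of the hippocampus, Gria2 (61.2 ± 2.39), whose edited subunit makes AMPA receptors impermeable to calcium, and Cacng7 (61.1 ± 2.11). Gria2 and Cacng7 did not differ beyond their spread on this length. With the length of the principal GENCODE transcript, added after the data were seen, they stood at 91.8 and 67.5. The lowest members were Grin2d (2.21 ± 0.179 FPKM), Grm4 (1.91 ± 0.240), Grik1 (1.79 ± 0.199) and Grm8 (0.730 ± 0.148), and Grm4 and Grik1 overlapped. In all, 29 of the 34 members lay above the median gene, which was at 3.97 FPKM over 16445 genes with a length.

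**Figure D1:**
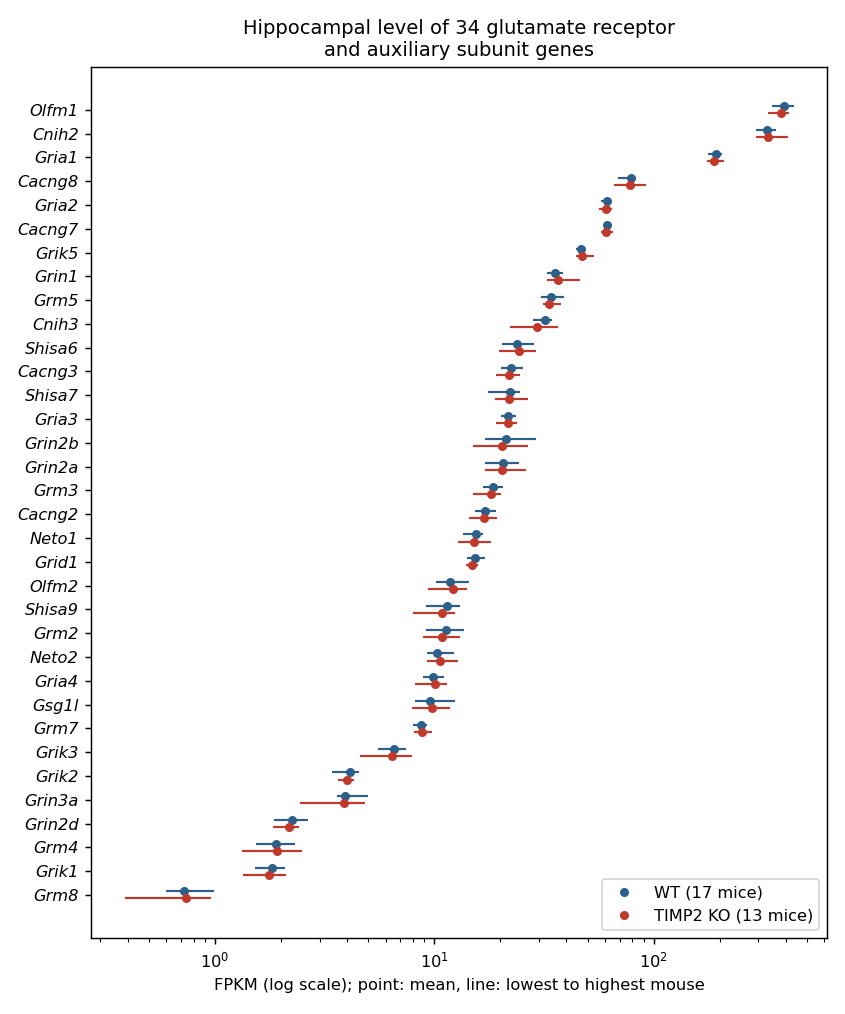
Level of each of the 34 genes in FPKM, on a log scale, in 17 WT mice (blue) and 13 TIMP2 KO mice (red), ordered by the mean of all mice. Points are means and lines run from the lowest to the highest mouse; Olfm1, Cnih2 and Gria1 head the order, Grm8 closes it, and the KO and WT ranges overlap for every gene.

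Within the listed members of each class, 1 usually led, and the shares are of these members alone. Other genes of the families, such as Cnih1, Cnih4, Grik4, Grin2c and Grin3b, are not among the 34 and not in the sums. Gria1 made up 67.2% ± 0.715 (SD, n = 30 mice) of the summed AMPA subunit level and Gria2 21.6% ± 0.493, with Gria3 at 7.65% and Gria4 at 3.53%. Grin1, the obligatory NMDA subunit, held 43.3% ± 2.84 of the NMDA subunit level. Grin2a and Grin2b held 24.5% ± 1.09 and 24.8% ± 2.30, which did not differ beyond their spread on merged exons. Grik5, a kainate subunit that needs a partner to form channels, held 79.2% ± 1.57 of its class. Cnih2 held 91.4% ± 0.956 of the summed level of Cnih2 and Cnih3. The order leans on gene length: Shisa6 moved from rank 11 to rank 4 when the length of its principal GENCODE transcript (1578 bases) replaced the merged exons (7449 bases), a choice added after the data were seen. The shares lean on it too. With principal transcripts Grin1 went from 36.0 to 82.4 CPM per kilobase, Grin2a from 20.5 to 25.1 and Grin2b from 20.8 to 21.5. Over the 34 genes, both orders had a Spearman correlation of 0.966, a description across genes.

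In KO against WT, 1 of the 34 genes differed at the study's threshold of an unadjusted p under 0.05: Cnih3, which encodes a cornichon protein that assembles with AMPA receptors and slows their closing. That is 2.94% of the members, beside 5.03% of all 16486 genes tested, so the share called is not a result about these genes. At an adjusted p under 0.05 none of the 34 passed, beside 0.0546% of all genes; DESeq2 also called none of them at an adjusted p and only Cnih3 at an unadjusted one. The median log2 fold change of the 34 was -0.018, with 23 of 34 below 0, against 0.00011 for all genes tested. With the number at the end of each sample's label as a covariate, a fit added after seeing the data, the median was -0.0034 and 17 of 34 were below 0, so the signs below depend on that choice.

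**Figure D2:**
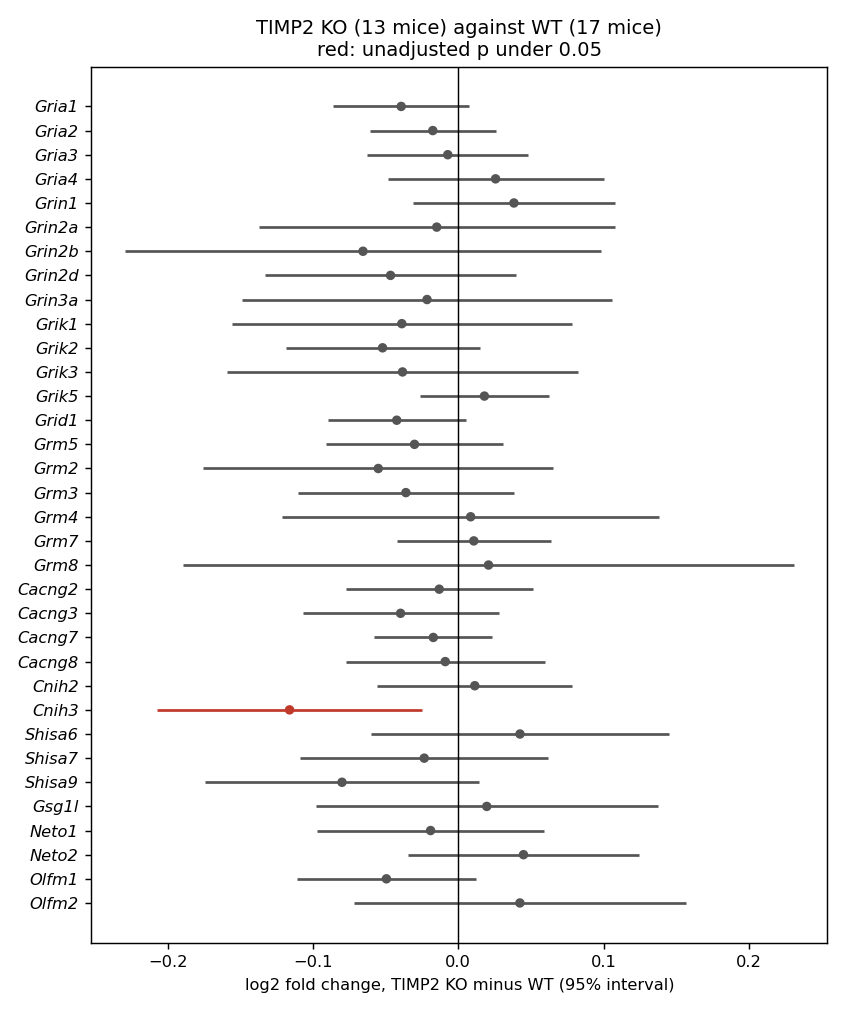
Log2 fold change of each of the 34 genes in TIMP2 KO (13 mice) against WT (17 mice), with its 95% interval from edgeR. The interval of Cnih3 (red, from -0.21 to -0.025) leaves out 0, and those of the other 33 genes span it.

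Cnih3 (ENSMUSG00000026514, GRCm38 chr1:181352628-181460641, plus strand) ran from 61.0 to 101 CPM in the 13 KO mice, with a median of 80.1, and from 77.8 to 94.5 CPM in the 17 WT mice, with a median of 89.3. The ranges overlapped, and the KO mice held both the lowest and the highest value. The log2 fold change was -0.12 ± 0.045 SE, 7.73% lower in KO (edgeR p = 0.0140, adjusted p = 0.928). Without KO male replicate 5 it was -0.086 (edgeR p = 0.0305). Across the 30 fits that each left out 1 mouse it stayed between -0.15 and -0.086, with unadjusted p-values of 0.00123 to 0.0305.

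By sex, the 7 KO females lay at 70.4 to 83.2 CPM with a median of 80.0, and the 7 WT females at 81.3 to 94.5 CPM with a median of 89.3. Only the top of the KO female range reached into the WT female range (log2 fold change -0.17 ± 0.038 SE, edgeR p = 2.94e-04, adjusted p = 0.769). The 6 KO males were spread from 61.0 to 101 CPM around a median of 84.2, and the 10 WT males from 77.8 to 93.7 CPM around 88.6. In males the log2 fold change was -0.061 ± 0.074 SE (edgeR p = 0.415). The KO effect of Cnih3 was not shown to differ between the sexes (interaction -0.11 ± 0.090 SE, edgeR p = 0.244, adjusted p = 1.00); without KO male replicate 5 the interaction had an unadjusted p of 0.0111.

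**Figure D3:**
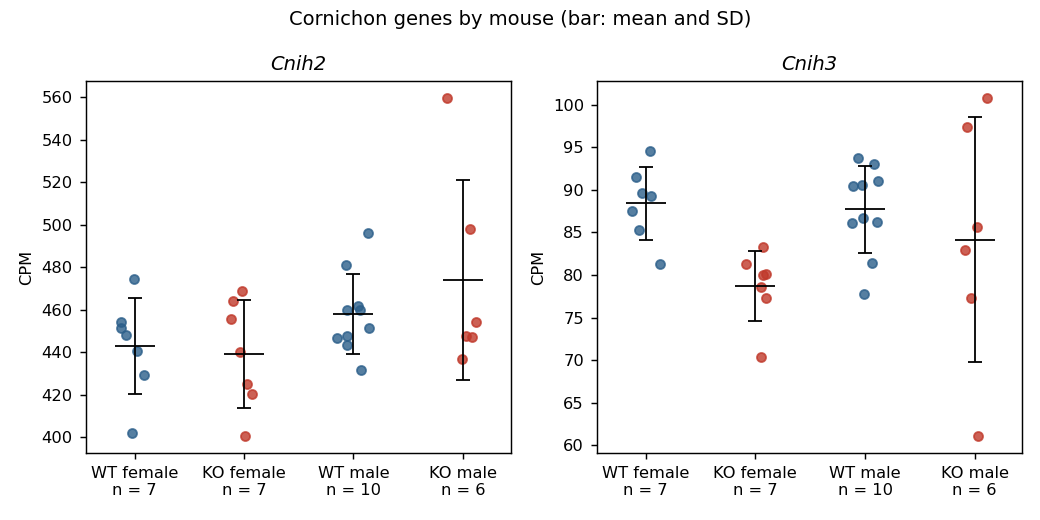
CPM of Cnih2 and Cnih3 in each mouse by sex and genotype, with the mean and SD of each group as black bars. For Cnih3 the 7 KO females cluster below most WT females, while the 6 KO males run from 61.0 to 101 CPM; for Cnih2 the genotypes overlap and 1 KO male reaches 560 CPM.

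The other cornichon gene, Cnih2 (ENSMUSG00000024873, chr19:5092868-5098521, minus strand), is the abundant hippocampal form. It ran from 400.5 to 560 CPM in KO with a median of 448 and from 402 to 496 CPM in WT with a median of 451 (log2 fold change 0.011, 95% interval -0.056 to 0.078). Without KO male replicate 5 the change was -0.017. The genotypes overlapped over nearly the whole range. The start regions of both genes are shown because the pair differs in level and only Cnih3 was called in KO against WT, at an unadjusted p alone. A difference between their KO changes did not hold after adjustment, as given with the ratios below. Each line holds the 250 bases before the RefSeq start of the gene (build GRCm38.p6), Cnih2 from chr19:5098522-5098771 on the minus strand and Cnih3 from chr1:181352378-181352627 on the plus strand, 5′ to 3′. Capitals mark the GC box (GGGCGG or its reverse CCGCCC) and the E-box CACGTG.
Cnih2: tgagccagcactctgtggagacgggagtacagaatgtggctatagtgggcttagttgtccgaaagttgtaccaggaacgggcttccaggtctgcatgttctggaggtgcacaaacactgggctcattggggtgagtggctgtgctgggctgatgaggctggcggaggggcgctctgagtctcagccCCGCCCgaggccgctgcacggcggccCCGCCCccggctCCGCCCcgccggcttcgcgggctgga
Cnih3: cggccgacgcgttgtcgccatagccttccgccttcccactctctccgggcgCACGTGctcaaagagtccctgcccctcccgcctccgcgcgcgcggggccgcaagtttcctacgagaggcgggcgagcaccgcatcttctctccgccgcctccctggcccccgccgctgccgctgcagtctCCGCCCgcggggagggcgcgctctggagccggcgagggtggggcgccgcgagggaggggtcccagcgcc
The G and C share was 65.6% for Cnih2 and 76.0% for Cnih3, against a median of 52.4% over 32851 promoter entries of the same length. The GC box stood 3 times in Cnih2 and 1 time in Cnih3, and it was present in 32.7% of all entries and in 13 of the 21 members with an entry. The E-box was found in Cnih3 and Grin1 among members and in 6.02% of all entries. The TATA box letters TATAAA (12.4% of all entries) were in none of the 21, and the cyclic AMP response element TGACGTCA (1.55%) was in Olfm2 alone. Members were counted as genes with a match in any of their entries, while the shares of all are over entries, so these are unlike units. All searches covered both strands, and a match is a description of letters only.

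None of the 4 AMPA receptor subunits passed. Gria2 lay at 881 to 1009 CPM in KO and 895 to 1008 CPM in WT, nearly the same range (log2 fold change -0.018, 95% interval -0.061 to 0.026). Gria1 had -0.039 (edgeR p = 0.0974), and -0.053 without KO male replicate 5 (edgeR p = 0.0170), Gria3 -0.0072 and Gria4 0.026. These intervals were narrow: the widest of the AMPA subunits, that of Gria4, ended at 0.100.

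None of the 5 NMDA receptor subunits passed. Grin1 lay at 315 to 446 CPM in KO and 317 to 374 CPM in WT (0.038, 95% interval -0.031 to 0.11, and 0.0068 without KO male replicate 5). Of its merged exon bases 13.5% are shared with an antisense gene, and the strand setting of the counting is not given in the sources used here, so its counts are uncertain. The same holds for Grin2d (9.66%), Grm2 (9.60%) and Cacng2 (5.86%), and for at most 2.21% of the bases of Grm7, Grin2b, Cnih2 and Neto2. Grin2b, the GluN2B subunit abundant in young neurons, lay at 373 to 663 CPM in KO and 424 to 720 CPM in WT. Its interval was among the widest of the 34 (-0.066 ± 0.081 SE, 95% interval -0.23 to 0.098), so this fit does not tell apart the values within it. With the label's number as a covariate the change of Grin2b was 0.0096 ± 0.053 SE. Grin2a had -0.015 (0.038 with the label's number as a covariate), Grin2d -0.047 and Grin3a -0.021. Without KO male replicate 5 Grin2a was at -0.049, Grin2b at -0.092 and Grin3a at 0.023.

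Kainate and delta receptor genes gave log2 fold changes from -0.052 to 0.018. Without KO male replicate 5 Grik3 went from -0.038 to -0.0044 and Grik1 from -0.039 to -0.0087. Grik2, a pore-forming kainate subunit, lay at 48.4 to 56.8 CPM in KO and 45.4 to 59.8 CPM in WT (-0.052, 95% interval -0.12 to 0.015). Grid1, a receptor that binds presynaptic neurexin through cerebellins, lay at 83.2 to 93.9 CPM in KO and 83.9 to 101 CPM in WT (-0.042, 95% interval -0.090 to 0.0052). Both sets of ranges overlapped.

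Of the metabotropic receptors, Grm5, the postsynaptic mGluR5 that couples to Gq, lay at 320.3 to 386 CPM in KO and 313 to 401 CPM in WT (-0.030, 95% interval -0.091 to 0.031). The inhibitory group 2 receptors Grm2 and Grm3 had -0.055 and -0.036. The group 3 receptors Grm4, Grm7 and Grm8 lay between 0.0085 and 0.021. Grm8, at a mean of 7.28 CPM in KO and 7.18 CPM in WT, carried the widest interval (-0.19 to 0.23). Without KO male replicate 5 Grm8 went from 0.021 to 0.080.

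Among auxiliary genes other than cornichons, the 4 TARPs lay between -0.040 for Cacng3 and -0.0090 for Cacng8, and none passed; with the label's number as a covariate Cacng2 was at 0.00068 and Cacng8 at 0.00031. Cacng8 lay at 154 to 217 CPM in KO and 161 to 196 CPM in WT (95% interval -0.078 to 0.060). Shisa6, which traps AMPA receptors at the synapse, lay at 147 to 217 CPM in KO and 152 to 212 CPM in WT (0.042, 95% interval -0.060 to 0.15, and 0.020 without KO male replicate 5). Shisa9, the founding CKAMP protein, had -0.080 (edgeR p = 0.0948), -0.092 with sex as a covariate (edgeR p = 0.0442) and -0.048 without KO male replicate 5 (edgeR p = 0.227). Gsg1l, a brake on AMPA receptor currents, had 0.020 (95% interval -0.098 to 0.14). Neto1, a partner of kainate receptors, lay at 107 to 152 CPM in KO and 113 to 139 CPM in WT (-0.019, 95% interval -0.097 to 0.059). Olfm1 lay at 1181 to 1467 CPM in KO and 1234 to 1552 CPM in WT (-0.049, 95% interval -0.11 to 0.012). The groups of these genes overlapped throughout.

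Each sex alone was also compared. In females, 5 of 34 genes passed the unadjusted threshold, or 14.7%, beside 5.02% of 16397 genes: besides Cnih3, Shisa9 (-0.10 ± 0.036 SE), Gria1 (-0.072 ± 0.026) and Grik2 (-0.091 ± 0.041) were lower and Neto2 was higher (0.075 ± 0.032). In males 1 of 34 passed, Grm3 (-0.099 ± 0.047 SE), beside 3.25% of 16607 genes. No member passed an adjusted p in either sex; the smallest edgeR adjusted p was 0.769 in females and 1.00 in males. In the test of the difference between the sexes, the interaction, 0 of 34 passed at an unadjusted p in edgeR and 0 in DESeq2, beside 2.66% of 17095 genes, and 0 passed adjusted, beside 0% of all genes. The calls in females are therefore not shown to be particular to them.

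Ratios of members that replace each other in receptors were compared within each mouse. The Cnih2 to Cnih3 ratio in FPKM was 11.5 ± 2.38 (SD, n = 13) in KO and 10.3 ± 0.709 (n = 17) in WT, with ranges of 9.06 to 18.4 and 8.55 to 11.5 (log2 difference 0.13, two-sided permutation p = 0.0499, adjusted over 6 ratios 0.279). Without KO male replicate 5 the log2 difference was 0.074 (permutation p = 0.140). The Grin2a to Grin2b ratio, which is known to climb as synapses mature, was 1.01 ± 0.0685 in KO and 0.978 ± 0.0617 in WT (log2 difference 0.053, permutation p = 0.143, adjusted 0.279). Gria1 to Gria2 stood at 3.09 ± 0.115 and 3.14 ± 0.0798 (permutation p = 0.202). The remaining 3 ratios, Gria1 to Gria3, Cacng8 to Cacng2 and Neto1 to Neto2, had log2 differences of -0.032, 0.0030 and -0.065 and adjusted permutation p-values of 0.279 to 0.916. None of the 6 held after adjustment.

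Between females (14 mice) and males (16 mice), with genotype in the model, 7 of 34 genes passed the unadjusted threshold, or 20.6%, beside 9.64% of 17095 genes. At an adjusted p none of the 34 passed in edgeR, beside 0.222% of all genes. DESeq2 passed 1 member, beside 79 of the 33548 genes it tested. The genes higher in females were Grm3, Gsg1l, Cacng3 and Shisa9, and those lower were Neto2, Grid1 and Cnih2.

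Grm3 (chr5:9485541-9725170), the receptor mGluR3 found in astrocytes as well as neurons, ran from 55.3 to 62.8 CPM in females with a median of 58.9 and from 46.0 to 60.2 CPM in males with a median of 53.9. Every female lay above the male median, though the ranges overlapped. The log2 difference, females minus males, was 0.13 ± 0.030 SE (edgeR p = 1.79e-04, adjusted p = 0.0665), with 0.086 in WT alone and 0.18 in KO alone. Gsg1l (chr7:125878420-126082411) ran from 35.0 to 48.6 CPM in females with a median of 39.0 and from 31.2 to 42.7 CPM in males with a median of 34.3. Its difference was 0.17 ± 0.051 SE (edgeR p = 0.00286, adjusted p = 0.220), with 0.12 in WT alone and 0.23 in KO alone.

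Cacng3 (chr7:122670492-122769393), the TARP γ-3, ran from 57.6 to 70.6 CPM in females with a median of 63.2 and from 52.9 to 64.9 CPM in males with a median of 60.7 (0.081 ± 0.031 SE, edgeR p = 0.0124, adjusted p = 0.378). Shisa9 (chr16:11984113-12270902) ran from 56.4 to 68.3 CPM in females with a median of 60.0 and from 41.8 to 65.5 CPM in males with a median of 57.5. Its difference was 0.10 ± 0.044 SE (edgeR p = 0.0250, adjusted p = 0.439), and without KO male replicate 5 it was 0.075 (edgeR p = 0.0539). For both genes the highest female lay above every male. The female range was shared with males up to 64.9 CPM for Cacng3 and up to 65.5 CPM for Shisa9. In WT alone and in KO alone the differences were 0.089 and 0.071 for Cacng3, and 0.11 and 0.089 for Shisa9.

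Neto2 (chr8:85636588-85700924) ran from 56.6 to 66.2 CPM in females with a median of 61.0 and from 57.0 to 78.3 CPM in males with a median of 65.3 (-0.12 ± 0.035 SE, edgeR p = 0.00187, adjusted p = 0.193). Grid1 (chr14:34820108-35583379) ran from 83.9 to 93.1 CPM in females with a median of 88.3 and from 83.2 to 101 CPM in males with a median of 92.4 (-0.059 ± 0.022 SE, edgeR p = 0.0103, adjusted p = 0.362). Cnih2 ran from 400.5 to 474 CPM in females with a median of 444 and from 432 to 560 CPM in males with a median of 453 (-0.075 ± 0.031 SE, edgeR p = 0.0192, adjusted p = 0.418). Without KO male replicate 5 the Cnih2 difference was -0.052 (edgeR p = 0.0514). In WT alone and in KO alone the differences were -0.13 and -0.10 for Neto2, -0.082 and -0.030 for Grid1, and -0.048 and -0.11 for Cnih2. Of the genes called between the sexes only Grm3 passed an unadjusted p in both genotypes, and Cnih2 passed in neither.

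**Figure D4:**
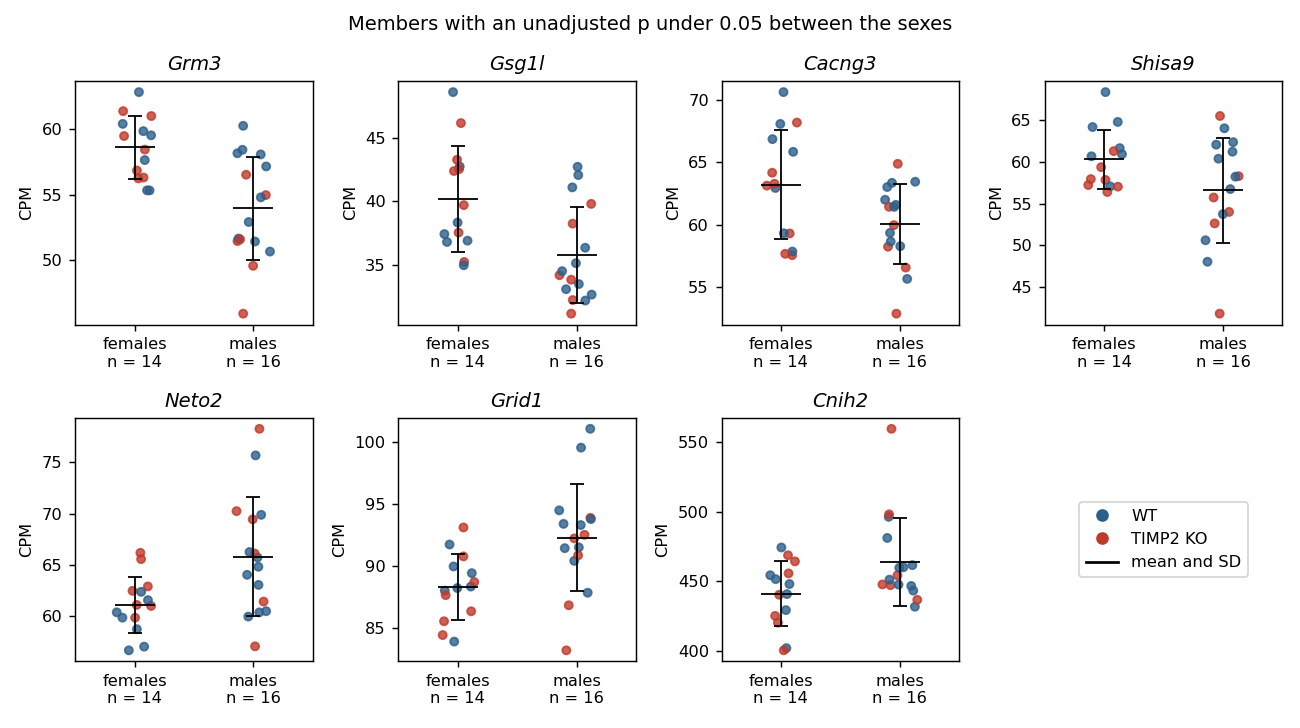
CPM of the 7 genes with an unadjusted p under 0.05 between 14 females and 16 males, 1 point a mouse, WT in blue and TIMP2 KO in red, with the mean and SD as black bars. Grm3, Gsg1l, Cacng3 and Shisa9 sit higher in females and Neto2, Grid1 and Cnih2 lower, and in each panel the sexes overlap.

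Marker lists moved with sex as well, at an unadjusted p under 0.05 in edgeR, beside 9.64% of all genes called. Higher in females were 4 of 8 astrocyte markers (summed level 2463 to 2758 CPM in females, 2361 to 2691 in males) and 4 of 12 dentate granule cell markers (784 to 1218 against 789 to 1030 CPM). Of the CA1 pyramidal cell markers 2 of 9 were lower (1640 to 1911 against 1691 to 2053 CPM). At an adjusted p 1 dentate granule cell marker passed, and 0 in the astrocyte and CA1 lists. The excitatory neuron list had 2 of 10 lower (8453 to 9848 against 8364 to 10701 CPM), the interneuron list 2 of 9 lower and 1 higher (1134 to 1312 against 1147 to 1384 CPM), the striatum list 2 of 7 higher and the endothelial list 1 of 6 in each direction. Of the immediate early genes, 9 of 12 were higher in females (270.3 to 864 against 273 to 585 CPM), 0 at an adjusted p. Their part in the differences between the sexes was not tested. In bulk tissue, fewer cells of a type and less RNA per cell cannot be told apart.

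Subunits that build one receptor were compared over the 30 mice in 8 pairs, on the log2 CPM scale. Gria1 and Gria2 rose and fell together (Pearson r = 0.726, permutation p = 1e-05, the smallest that 100000 resamples can give, adjusted 8e-05; Spearman rho = 0.652, permutation p = 0.00016, adjusted 0.00128). Without the 2 mice farthest from the Gria1 median r was 0.651, within KO it was 0.694 and within WT 0.755. Gria2 and Cacng8 had r = 0.590 (permutation p = 0.00039, adjusted 0.00156; rho = 0.566, permutation p = 0.00138, adjusted 0.00552), 0.439 without the 2 farthest mice, 0.716 within KO and 0.387 within WT, where it did not pass (permutation p = 0.129). Grin1 and Grin2a had r = 0.540 (permutation p = 0.00114, adjusted 0.00304; rho = 0.471, permutation p = 0.00899, adjusted 0.0240), 0.463 without the 2 farthest mice, 0.646 within KO and 0.435 within WT (permutation p = 0.0813). The other 5 pairs, Grin1 with Grin2b, Grik2 with Grik5, Gria1 with Cnih2, Grik2 with Neto1 and Gria2 with Olfm1, had r between -0.091 and 0.345 and did not pass (adjusted permutation p from 0.0996 to 0.630). As a scale, the median r over all 561 pairs of members was 0.062. Without TMM factors r was 0.603 for Gria1 and Gria2, 0.421 for Gria2 and Cacng8 and 0.431 for Grin1 and Grin2a. The permutations took no account of the number at the end of each sample's label. Gria2 and Grin2a changed with it (edgeR p = 0.0173 and 4.16e-07), and its part in these correlations was not tested.

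The highest of the 561 values belonged to Grin2a and Grin2b, a pair chosen after its value was seen (r = 0.937, rho = 0.956, 0.953 within KO and 0.927 within WT, given as a description). Both genes also varied widely. The SD of log2 CPM within groups was 0.25 for Grin2b and 0.18 for Grin2a, wider than 77.3% and 67.7% of all genes tested, whereas Cacng7 (0.049), Grid1 (0.055), Grik5 (0.057) and Gria2 (0.058) were among the steadiest, below the tenth percentile. Grm8 was the most variable member at 0.32. The median SD of the 34 genes was 0.10, against 0.12 for all genes tested and 0.088 for the 10760 genes whose mean level lay within the range of the 34.

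Grin2b and Grin2a followed the number at the end of each sample's label, which runs from 1 to 32. The labels do not say what the number stands for and give no dates, while the study's methods name the date of isolation or harvest as a batch in its network analysis. Whether the number follows that date was not tested, and the relation was looked for after the data were seen. In a fit with genotype and sex beside the number, 11 of 34 genes changed with it at an unadjusted p under 0.05, or 32.4%, beside 19.2% of 17095 genes. In WT mice alone 2 of 34 passed an adjusted p, beside 263 of 16542 genes, and in KO mice alone 0 of 34, beside 0 of 16495 genes. In all mice 5 of 34 passed an adjusted p, or 14.7%, beside 6.19% of all genes. All 5 rose: Grin2b by 14.7% for each step of 10 numbers (log2 0.20 ± 0.028 SE, edgeR adjusted p = 4.3e-05), Grin2a by 10.1% (0.14 ± 0.022, adjusted p = 1.34e-04), Shisa6 by 5.21% (0.073 ± 0.023, adjusted p = 0.0494), Shisa7 by 4.74% (0.067 ± 0.020, adjusted p = 0.0340) and Grm5 by 3.91% (0.055 ± 0.013, adjusted p = 0.00668).

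Grin2b ran from 373 to 627 CPM with a median of 452 in the 15 mice numbered 1 to 16, and from 461 to 720 CPM with a median of 564 in the 15 mice numbered 18 to 32. Grin2a ran from 304 to 435 CPM with a median of 328 in the first set and from 344 to 468 CPM with a median of 390.3 in the second. Both ranges overlapped, with the lower values in the first set. The slope was present in each genotype: for Grin2b 0.18 in WT (edgeR adjusted p = 0.00233) and 0.23 in KO (adjusted p = 0.0820), and for Grin2a 0.13 in WT (adjusted p = 0.00457) and 0.17 in KO (adjusted p = 0.0851). Without KO male replicate 5 the slopes were 0.19 and 0.13.

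**Figure D5:**
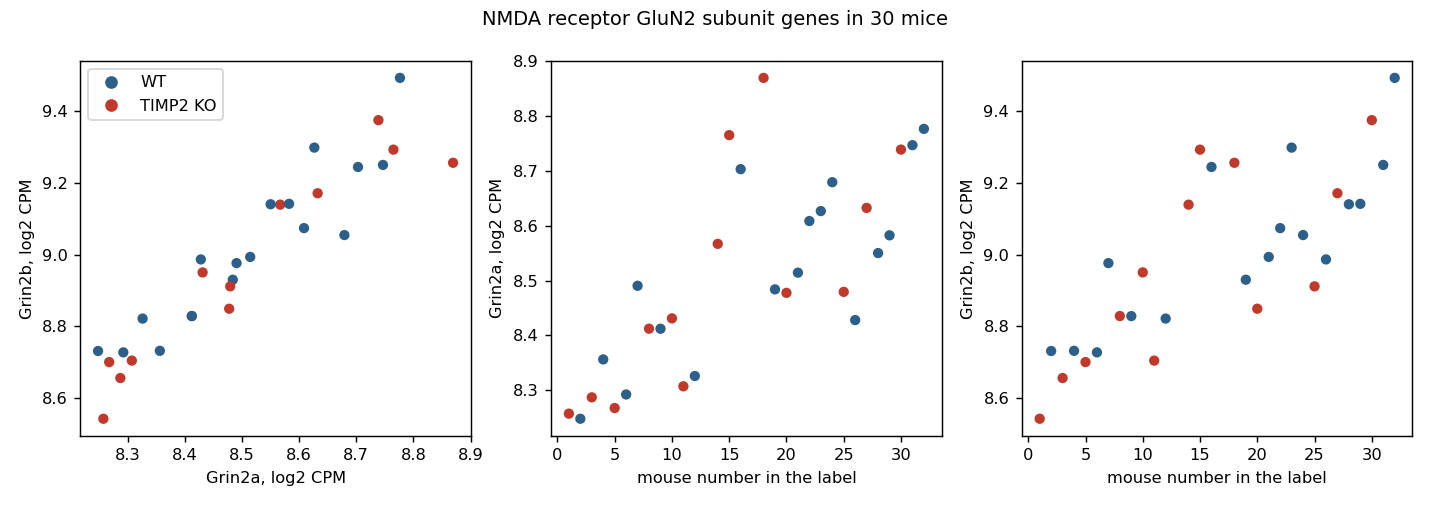
Left, log2 CPM of Grin2b against Grin2a in 30 mice (WT blue, TIMP2 KO red); middle and right, each gene against the number in the sample's label. The genes lie along 1 line (r = 0.937), and both climb with the number in WT and in KO mice.

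The 6 further genes past the unadjusted threshold were Gria3 (0.034), Gria2 (0.027), Grid1 (0.024), Cacng2 (0.035) and Grik2 (0.035), which rose, and Cnih3, which fell (-0.046 for each step of 10 numbers, edgeR p = 0.0484). Grin2b and Grin2a have the longest merged exons of the 34 genes, 24842 and 17933 bases. Exon length and slope had a Spearman correlation of 0.581 over the 34 genes and 0.332 over 17053 genes, a description across genes. Of the immediate early genes, 9 of 12 also rose with the number at an unadjusted p in edgeR, beside 19.2% of all genes, 2 of them at an adjusted p. Log2 total counts had r = -0.269 with the number. The part of the immediate early genes and of total counts was not tested. The mean number was 14.4 in KO and 18.3 in WT, and 16.4 in females and 16.8 in males. With the number as a covariate, the KO against WT change of Cnih3 was -0.14 ± 0.044 SE (edgeR p = 0.00364, adjusted p = 0.710), it was again the only member called, and the change of Grin2b was 0.0096 ± 0.053 SE (edgeR p = 0.857). Between the sexes 8 members were then called in place of 7, beside 10.3% of all genes.

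Other genes of glutamate signalling were examined from 3 lists in KO against WT, beside the 5.03% of all genes called. Of other receptors and auxiliary proteins 0 of 21 tested genes passed an unadjusted p in edgeR and 0 in DESeq2, with a median log2 fold change of 0.010. Of receptor scaffolds and trafficking proteins 0 of 23 passed in edgeR and 0 in DESeq2, with a median of -0.021. Of genes for glutamate release, uptake and metabolism 1 of 16 passed, with a median of -0.0041. That gene was Gls2, a mitochondrial glutaminase that makes glutamate from glutamine (0.11 ± 0.050 SE higher in KO, edgeR p = 0.0391, adjusted p = 0.980).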

How the data were processed

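Poly(A)-selected hippocampal RNA of 30 mice was sequenced as paired-end reads. Per the labels, the authors trimmed reads with Trimmomatic 0.36, aligned them to GRCm38 with STAR 2.5.2b and deposited the raw counts that featureCounts (Subread 1.5.2) gave per gene; the strand setting is not given in the sources used here. Each mouse is 1 library and entered as 1 replicate, grouped by the labelled genotype and sex.

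Counts were tested with edgeR 4.0.16 (R 4.3.3; TMM, filterByExpr, quasi-likelihood test, two-sided, Benjamini-Hochberg over all genes tested), KO against WT with sexes pooled and no covariates; the study's methods name none for this test, and name isolation or harvest date as a batch only in its network analysis. FPKM used the merged exons of GENCODE M21, which held 49056 of 49315 identifiers. Ratios and correlations used permutation tests of 100000 resamples (numpy 2.4.6, scipy 1.17.1). Alternatives used DESeq2 1.42.0, limma 3.58.1 and sva 3.50.0 (8 surrogate variables). The fits were tested on simulated data. The members and lists were chosen with earlier results of these data known. Genes called at an unadjusted p under 0.05 in a genotype, sex or interaction test are given in full, and 12 fixed representatives with levels and intervals. The pair Grin2a and Grin2b, the fits on the number in the label and the second gene length were chosen after seeing the data. No 2 libraries held identical counts. One gene of the lists is not reported here.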

Additional observations from a re-analysis of the deposited data

Results flagged for a closer look

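In 10 of 136 combinations of gene and group (34 genes in KO females, KO males, WT females and WT males), 1 mouse lay apart from the others of its group by Dixon's criterion; chance alone marks about 1 in 20, or 6.8 of 136. All values are log2 CPM. Grin3a, an NMDA subunit that lowers calcium entry, stood apart in 3 groups: at 4.91 in a KO male against 5.45 to 5.77 in the other 5, at 5.94 in a WT female against 5.49 to 5.63 in the other 6, and at 5.91 in a WT male against 5.46 to 5.65 in the other 9. In the same KO male, replicate 5, Grik5 was at 8.11 against 7.88 to 7.96 in the others. In KO females Gria2 was at 9.78 against 9.89 to 9.94, and Grin1 at 8.30 against 8.43 to 8.49, both in the mouse numbered 11. KO females also held a high Grm5 value, 8.59 against 8.35 to 8.45, and a high Cacng2 value, 6.73 against 6.48 to 6.56. In WT males the mouse numbered 6 was lowest for Cacng8, at 7.33 against 7.50 to 7.60, and for Shisa7, at 6.86 against 7.17 to 7.35.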

How the results depend on the processing

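The number of members called in KO against WT was 1, and it was 2 with sex as a covariate (beside 5.62% of all genes), 2 with limma voom and sample weights (5.82%), 4 with sex and surrogate variables (7.07%), 5 in females alone (5.02%), and 1 to 3 when any 1 mouse was left out (3 without WT male replicate 3; 2 without WT male replicate 7, WT female replicates 4 and 6 or KO male replicates 2, 4 and 5). Cnih3 kept its direction in every alternative run and lost its unadjusted call in males alone. In the interaction, leaving out 1 mouse gave 0 to 1 calls (1 without KO male replicates 1, 4 or 5). For every fit that left out 1 mouse the share of all genes called is not given here, so those counts are not a result about the members. Members called between the sexes went from 7 to 5 in WT mice alone (beside 5.63% of all genes) and 3 in KO mice alone (6.08%). At an adjusted p 1 member passed between the sexes in some edgeR fits that left out 1 mouse, such as without WT male replicate 7 (edgeR adjusted p = 0.0346). Members called against the label's number went from 11 to 7 in WT alone (12.9% of all genes, against 19.2% in all mice) and 7 in KO alone (11.3%). At an adjusted p they went from 5 to 2 in WT alone (beside 263 of 16542 genes) and 0 in KO alone (beside 0 of 16495). Of the other glutamate genes, 1 of the receptor list passed in females, 1 of the scaffold list in females and 1 in males, and 0 of the release list in either. The log2 ratio difference of Gria1 to Gria2 was -0.053 in females (permutation p = 0.0151) and 0.012 in males. That of Cnih2 to Cnih3 was 0.12 in males and 0.074 to 0.16 with 1 mouse left out. That of Cacng8 to Cacng2 was -0.045 in females and -0.0076 to 0.014 with 1 mouse left out. Within WT, r was 0.435 for Grin1 and Grin2a, 0.387 for Gria2 and Cacng8 and -0.052 for Gria1 and Cnih2, against 0.641 for the last within KO. For Grik2 and Grik5, r was -0.024 without TMM and -0.065 without the 2 farthest mice. The cause of these shifts was not tested; the fits on part of the mice rest on fewer mice. No paired analysis was possible because the labels give each mouse a number of its own and name no litters; replicate numbers here follow accession order. No setting made a member pass an adjusted p in KO against WT.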

Other observations

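The 3 lists of other glutamate signalling genes were also read against the number in the sample's label, in the same fit and again after the data were seen. Of receptor scaffolds and trafficking proteins 11 of 23 passed an unadjusted p in edgeR, 10 of them rising, and 6 passed an adjusted p, beside 19.2% and 6.19% of all genes. Those 6 were the postsynaptic scaffolds Shank1 (log2 0.094 for each step of 10 numbers), Homer2 (0.087), Shank2 (0.085), Dlg2 (0.061), Dlgap1 (0.046) and Akap5 (0.045). Of the genes for glutamate release, uptake and metabolism 3 of 16 passed an unadjusted p, a share near that of all genes, and the glial glutamate transporter Slc1a2 (0.092) and the cystine-glutamate exchanger Slc7a11 (0.11) passed an adjusted p. Of the other receptors and auxiliary proteins 6 of 21 passed an unadjusted p, 4 of them rising, and 0 of 21 an adjusted p in edgeR.

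Between the sexes, the receptor and auxiliary protein genes Cacng5 (log2 -0.23 ± 0.074 SE) and Syndig1 (-0.082 ± 0.040) were lower in females at an unadjusted p in edgeR, beside 9.64% of all genes passing in either direction. The vesicular glutamate transporter genes Slc17a7 (-0.071 ± 0.024 SE) and Slc17a8 (-0.16 ± 0.069) were lower in females, and the astrocyte transporter gene Slc1a3 (0.064 ± 0.028) was higher. None of these passed an adjusted p.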
